A study of Mus musculus with 6 samples.

Results

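The genes described here encode secreted cytokines that act on blood cells and their precursors: the colony-stimulating factors Csf1, Csf2 and Csf3, the interleukins Il1a, Il6, Il11, Il23a and Il34, the interleukin-1 receptor antagonist Il1rn, and the leukaemia inhibitory factor Lif. They were taken by gene symbol from the deposited count table, which held all 10 of them among 31017 symbols. The samples were 4T1 cells, a mouse mammary carcinoma line, grown in 3D gels of collagen I and sequenced as poly(A) RNA. The 3 control samples had been nucleofected with Cas9 and control guide RNAs, and the 3 ETV4 KO samples with Cas9 and guides against Etv4, a DNA-binding factor of the ETS family. The 3 ETV4 KO libraries carry 1 common library code, c39, which the labels do not explain, and nothing says that replicates came from separate cultures. The p-values therefore reflect only the scatter of these libraries, which may be technical. Should the code stand for 1 clone, traits of that clone and the loss of Etv4 cannot be told apart here. The protocol names 2 collagen concentrations, 1.2 and 2.4 mg/ml, without saying which was used here.

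Colony-stimulating factors drive the production and survival of myeloid cells. Macrophage colony-stimulating factor (Csf1) and interleukin 34 are unrelated in sequence but bind the same receptor, Csf1r, on monocytes and macrophages, whereas Csf2 and Csf3 act on granulocytes and macrophages and on neutrophils through receptors of their own. Interleukin 1 alpha and its antagonist Il1rn compete for the receptor Il1r1. Interleukin 6, interleukin 11 and Lif all signal through the shared subunit gp130 (Il6st), and Il23a is the specific subunit of interleukin 23, which is secreted only when paired with the p40 subunit Il12b. Tumours of 4T1 cells are known for their output of the neutrophil factor encoded by Csf3.

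In ETV4 KO cells Csf1 mRNA was 2.12-fold higher and Il23a mRNA 2.02-fold lower than in controls, and these were the largest differences among the 8 members that could be tested. Csf2 and Il1a were also higher and Csf3 and Il34 lower, each by less than 1.5-fold, while Lif and Il11 did not pass the test. Il1rn and Il6 were close to 0 counts in both groups and were not tested. Levels are given in CPM, the counts per gene scaled to library size with edgeR's TMM factors. The differences were tested with edgeR's quasi-likelihood test over 12076 genes, and a gene was called at a Benjamini-Hochberg adjusted p under 0.05. Of the 8 tested members 3 were called higher and 3 lower; of all tested genes 35% were called higher, 36% lower and 71.1% in either direction. The median log2 fold change was 0.19 over the 8 tested members and -0.0038 over all tested genes. The share of members called, 6 of 8, is thus near the background, and the sizes say more than the calls. With glmTreat, which asks for a change beyond 1.5-fold, only Csf1 and Il23a of the 8 passed, against 13.9% of all tested genes. The groups did not overlap for the 6 called members, as for 72.7% of all tested genes.

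**Figure D1:**
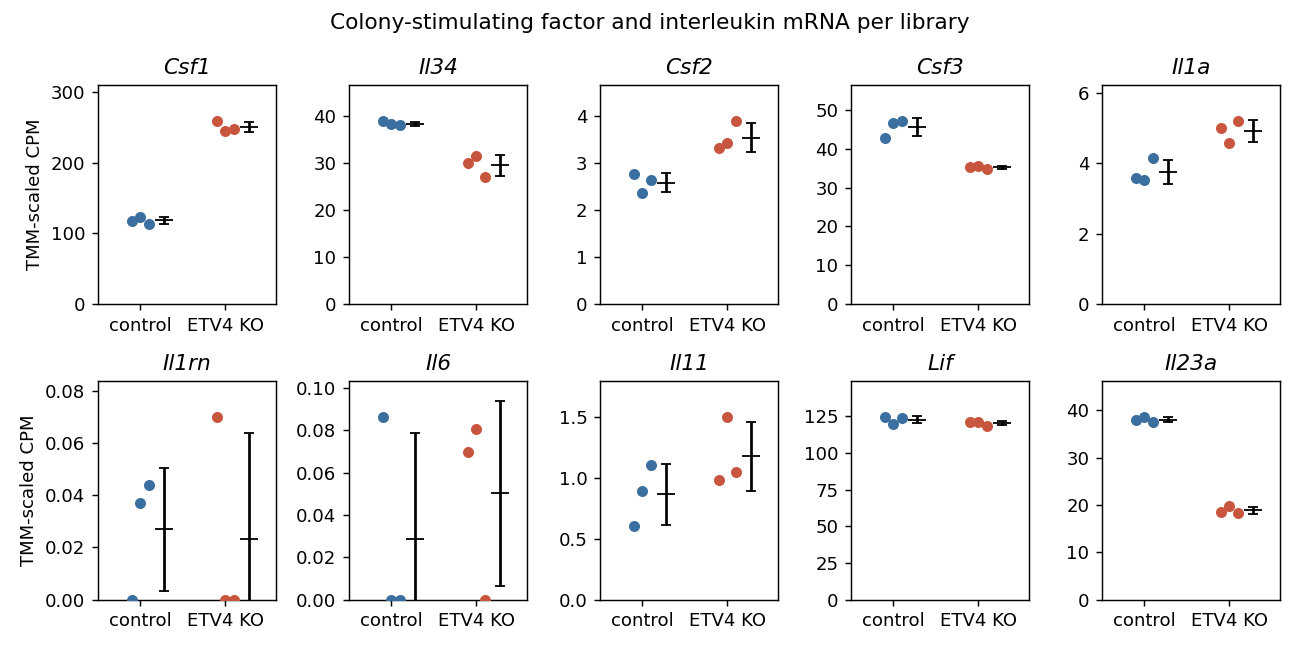
TMM-scaled CPM of the 10 genes in each library (points; the vertical axis starts at 0 and differs between panels), with the mean and SD of 3 libraries beside them. The Csf1 values of ETV4 KO lie between 245 and 259 CPM, all above the controls, and those of Il23a between 18.4 and 19.7 CPM, all below them.

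The libraries held 22355015 to 29042569 counts each. Etv4 itself had 133.3 to 134.7 CPM in the controls and 87.4 to 92.3 CPM in ETV4 KO, which is -0.58 on the log2 scale (SE 0.036, edgeR adjusted p = 1.03e-14). Its 54 tested neighbours within 1 Mb had a median of -0.46, and 22 of them lay below it. Offset by the median of its 10 Mb bin, as described below, Etv4 had -0.11 (edgeR adjusted p = 0.0074). Whole-gene counts do not show whether a cut changed the protein. Of the 5 epithelial markers Krt8, Krt18, Krt7, Epcam and Cdh1, all but Krt7 were called lower, against 36% of all tested genes. The 5 summed to 5359 to 5513 CPM in controls and 3994 to 4190 CPM in ETV4 KO. Of 10 leukocyte markers 6 had at most 10 counts over the 6 libraries, with Adgre1, Lyz2 and Cd3e at 0, and the summed level was 10.3 to 11.0 CPM in controls and 9.70 to 12.0 CPM in ETV4 KO, most of it Cd68. Of 4 fibroblast markers 3 had at most 10 counts, and the sum, nearly all Pdgfra, was 9.70 to 11.4 CPM in controls and 12.6 to 14.4 CPM in ETV4 KO. The 3 endothelial markers summed to at most 0.314 CPM. The part of these shifts in the differences described here was not tested. In a bulk sample, fewer cells that express a gene and less RNA of it per cell cannot be told apart.

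The promoter sequences of the members are shown because Etv4 binds DNA, and were searched for the letters that ETS, AP-1 and NF-kB factors are known to bind. RefSeq windows on GRCm38.p6, from 250 bases before to 50 bases after an annotated start, were at hand for 7 of the 10 members, with 10 windows in all; those of Csf3, Il23a and Il34 were not used here. Csf1 and Il1a are printed as called members, Lif as the tested member with the most ETS matches, and Il6 as a gene close to 0 counts. Each is 5′ to 3′ on the strand of the gene, with base 251 as the annotated start, and capitals mark matches on either strand to GGAAGT (ETS), TGANTCA (AP-1) and the NF-kB letters, which are GGG and CC with 5 bases of any kind between them; overlapping matches join.
Csf1, chr3:107760420-107760719, minus strand: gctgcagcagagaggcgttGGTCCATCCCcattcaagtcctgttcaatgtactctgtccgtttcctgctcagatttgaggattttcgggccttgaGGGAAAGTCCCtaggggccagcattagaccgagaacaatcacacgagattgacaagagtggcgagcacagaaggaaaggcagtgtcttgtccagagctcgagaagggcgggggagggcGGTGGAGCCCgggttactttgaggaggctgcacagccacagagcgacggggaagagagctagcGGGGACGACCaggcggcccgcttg
Il1a, chr2:129309923-129310222, minus strand: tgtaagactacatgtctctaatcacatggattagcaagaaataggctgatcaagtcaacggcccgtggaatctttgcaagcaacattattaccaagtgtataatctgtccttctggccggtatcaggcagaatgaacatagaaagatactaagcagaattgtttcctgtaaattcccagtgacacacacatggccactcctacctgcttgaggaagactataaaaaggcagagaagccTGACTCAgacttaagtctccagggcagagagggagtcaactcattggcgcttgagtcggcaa
Lif, chr11:4257318-4257617, plus strand: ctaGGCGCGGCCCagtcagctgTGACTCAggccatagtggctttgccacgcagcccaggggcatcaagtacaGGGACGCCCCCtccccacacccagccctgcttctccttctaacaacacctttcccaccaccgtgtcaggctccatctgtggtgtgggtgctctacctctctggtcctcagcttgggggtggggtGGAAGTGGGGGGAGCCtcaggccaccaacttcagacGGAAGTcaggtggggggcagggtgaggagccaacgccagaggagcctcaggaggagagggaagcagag
Il6, chr5:30012864-30013163, plus strand: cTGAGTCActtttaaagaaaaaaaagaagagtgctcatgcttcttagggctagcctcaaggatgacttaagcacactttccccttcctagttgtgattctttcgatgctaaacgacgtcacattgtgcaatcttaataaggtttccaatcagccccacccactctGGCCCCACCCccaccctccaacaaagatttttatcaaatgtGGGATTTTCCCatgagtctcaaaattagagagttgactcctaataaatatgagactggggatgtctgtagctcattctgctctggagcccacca

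The ETS letters GGAAGT were found in 2 of the 10 member windows, 1 of Lif and 1 of Il11. They were found in 23.8% of the 32851 promoter windows in the table. In Lif they began 54 and 18 bases before the annotated start. The window of Csf1 held none, and neither did those of Il1a and Csf2. The 3 members that rose thus had no match to these letters in these windows. The 3 called lower, Csf3, Il23a and Il34, had no window here, so members that rose and fell cannot be compared. The AP-1 letters were found in 5 of the 10 member windows, those of Il1a, Il1rn, Il6, Il11 and Lif, against 7.81% of all windows, and the match of Il1a began 12 bases before the start. The NF-kB letters, which are loose and met in 50.8% of all windows, were found in 8 of the 10, including GGGAAAGTCC, 155 bases before the start of Csf1, and GGGATTTTCC, 44 bases before that of Il6. By member this is 6 of 7, as windows 2 and 3 of Il1rn overlap and share a match. No share by gene was computed for the other genes. The C/EBP letters TTGCNNAA, searched on both strands but not in capitals, were found in Csf2 and Il6, against 10.8% of all windows. TATAAA, also searched on both strands and not in capitals, was found in Il1a, 32 bases before the start, and in Il1rn, against 13.6% of all windows. The RefSeq start of Csf2 lies 232 bases from that of GENCODE M21, so its window is another stretch than the one next to the GENCODE start. A match is a description of these letters and not evidence of binding.

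Csf1, the main survival factor of macrophages, carried the largest rise (chromosome 3, 107741048 to 107760469 in mm10). It had 118, 124 and 114 CPM in control replicates 1, 2 and 3, and 259, 245 and 248 CPM in ETV4 KO replicates 1, 2 and 3. All 3 ETV4 KO libraries thus lay above all 3 controls, with a gap many times the spread within a group. The means were 118 CPM ± 4.85 and 251 CPM ± 7.04 (SD, n = 3 each), and the log2 fold change was 1.08 (SE 0.036, edgeR adjusted p = 2.58e-21). Of the 12076 tested genes 402 had a larger one. A called rise of at least 2-fold was found in 3.87% of all tested genes.

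Il34, the other ligand of Csf1r, moved the opposite way (chromosome 8, 110741829 to 110805924 in mm10). It had 38.9, 38.3 and 38.1 CPM in control replicates 1 to 3 and 30.1, 31.5 and 27.1 CPM in ETV4 KO replicates 1 to 3. The controls lay close together and above each ETV4 KO library, which were more spread. The means were 38.5 CPM ± 0.410 and 29.6 CPM ± 2.26 (SD, n = 3 each), and the log2 fold change was -0.38 (SE 0.055, edgeR adjusted p = 4.64e-07). The antisense transcript Gm15894, which overlaps the gene on the other strand, had 43 counts in controls and 14 in ETV4 KO, few beside the 2808 and 2290 of Il34.

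As the ligands of 1 receptor moved apart, their ratio changed more than either gene. Il34 counts were 0.330, 0.310 and 0.335 of the Csf1 counts in control replicates 1 to 3, and 0.116, 0.129 and 0.109 in ETV4 KO replicates 1 to 3. The mean ratio was 2.75-fold lower in ETV4 KO, with no overlap; a ratio within a library does not depend on the scaling, and it was not tested, since the genes had been chosen. Per kilobase of exon the ratio went from 0.876 ± 0.035 to 0.318 ± 0.026 (SD, n = 3 each), so that Il34 was somewhat below Csf1 in controls and far below it in ETV4 KO. The receptor itself was scarcely detected: Csf1r was at 7, 21 and 11 counts in control replicates 1 to 3 and at 4, 1 and 0 in ETV4 KO. It did not pass the filter on low counts, and without that filter its log2 fold change was -2.94 (SE 0.64, edgeR adjusted p = 1.28e-05). Ptprz1, a receptor of interleukin 34 in the nervous system, had 32 counts in controls and 9 in ETV4 KO (-1.87 without the filter, SE 0.59, edgeR adjusted p = 0.0038). The fit without the filter gives far smaller p-values than the main fit, so the 2 are not on 1 scale. For Csf1 the edgeR adjusted p was 5.75e-192 without the filter and 2.58e-21 in the main fit. DESeq2 gave adjusted p = 0.0020 for Csf1r and 0.030 for Ptprz1. Csf1r and Ptprz1 are named here after their values were seen.

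Csf2, the granulocyte-macrophage factor, was a low-count gene that rose (chromosome 11, 54247271 to 54249667 in mm10). It had 64, 64 and 60 counts in control replicates 1 to 3 and 95, 85 and 93 in ETV4 KO replicates 1 to 3. Scaled for depth these were 2.36 to 2.76 CPM and 3.32 to 3.89 CPM, so the groups did not overlap but lay close. The log2 fold change was 0.46 (SE 0.15, 95% interval 0.15 to 0.77, edgeR adjusted p = 0.0087), a call that was lost with DESeq2 (adjusted p = 0.058) and without control replicate 2 (0.39, edgeR adjusted p = 0.051). With the median of the 10 Mb bin around each gene taken out, as described below, it was 0.80 (edgeR adjusted p = 3.18e-05).

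Csf3, the neutrophil factor, fell (chromosome 11, 98701263 to 98703629 in mm10). It had 42.9, 46.7 and 47.1 CPM in control replicates 1 to 3 and 35.3, 35.5 and 34.9 CPM in ETV4 KO replicates 1 to 3. The ETV4 KO libraries were nearly equal to each other and below all controls. The means were 45.6 CPM ± 2.34 and 35.2 CPM ± 0.335 (SD, n = 3 each), and the log2 fold change was -0.37 (SE 0.050, edgeR adjusted p = 1.17e-07). The call ended when the median of its 10 Mb bin was taken out, with -0.0050 (edgeR adjusted p = 0.938). The receptor genes Csf3r and Csf2ra, which encode the receptor of Csf3 and the specific chain of the Csf2 receptor, had 0 counts in all 6 libraries.

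Il1a, an alarm cytokine of epithelial cells, rose by about as much as Csf2 (chromosome 2, 129299610 to 129309972 in mm10). It had 83, 95 and 94 counts, or 3.58, 3.51 and 4.14 CPM, in control replicates 1 to 3. In ETV4 KO replicates 1 to 3 it had 143, 113 and 124 counts, or 5.00, 4.56 and 5.19 CPM. The groups did not overlap, though the lowest ETV4 KO library was near the highest control. The log2 fold change was 0.40 (SE 0.13, edgeR adjusted p = 0.0073); the call was lost with DESeq2 (adjusted p = 0.0502) and with the bin median taken out (0.22, edgeR adjusted p = 0.133).

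Its antagonist Il1rn, on the same chromosome, had 2 counts over the controls and 2 over ETV4 KO, which is at or under the floor of 3 counts per group, so no fold is given. The mean ratio of Il1rn to Il1a counts was 0.0071 in controls and 0.0047 in ETV4 KO, from these few counts. Both groups thus held agonist mRNA with almost no antagonist mRNA. The receptor genes fell: Il1r1, the signalling receptor, had a log2 difference of -0.83 (SE 0.081, edgeR adjusted p = 2.58e-10), with 16.2 CPM ± 1.26 in controls and 9.11 CPM ± 0.519 in ETV4 KO (SD, n = 3 each). Il1rap, its accessory chain, had -0.96 (SE 0.066, edgeR adjusted p = 1.11e-13), with 29.7 CPM ± 2.35 in controls and 15.2 CPM ± 0.625 in ETV4 KO. The decoy receptor Il1r2 had 1 count in controls and 2 in ETV4 KO. Il1a and the genes for its receptor chains therefore differed in opposite directions. Il1b, named after its value was seen, is the other agonist of Il1r1 and was at 14, 13 and 26 counts in control replicates 1 to 3 and at 8, 5 and 5 in ETV4 KO, a log2 difference of -1.62 (SE 0.42, edgeR adjusted p = 0.00099).

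Among the members that signal through gp130, Lif was abundant and did not pass the test, and Il11 and Il6 were low. Lif (chromosome 11, 4257557 to 4272514 in mm10) had 124, 119.9 and 124 CPM in control replicates 1 to 3 and 122, 121 and 119 CPM in ETV4 KO replicates 1 to 3. These ranges overlap. The log2 fold change was -0.03 (SE 0.035, 95% interval -0.10 to 0.05, edgeR adjusted p = 0.521). With the bin median taken out the direction turned, to 0.22 (edgeR adjusted p = 3.17e-06). In control replicates 1 to 3 Il11 (chromosome 7, 4772373 to 4782859 in mm10) was at 14, 24 and 25 counts, and at 28, 37 and 25 in ETV4 KO replicates 1 to 3. The groups overlapped, and with a log2 difference of 0.43 (SE 0.27, 95% interval -0.12 to 0.99, edgeR adjusted p = 0.156) a difference of up to about 2-fold could not be told from none at this depth. The value was 0.23 without ETV4 KO replicate 2, 0.24 without control replicate 1 and 0.62 without control replicate 3, in no case called by edgeR. For Il6 (chromosome 5, 30013114 to 30019981 in mm10) the controls gave 2, 0 and 0 counts and ETV4 KO gave 2, 2 and 0. The depth-scaled ratio of 1.89 had a 95% Clopper-Pearson interval of 0.271 to 20.9, which covers counting error only, so no difference was detectable.

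Among the receptor genes of this branch, Il6st (gp130) rose. Its means were 113 CPM ± 3.67 in controls and 147 CPM ± 7.50 in ETV4 KO (SD, n = 3 each), and the log2 fold change was 0.38 (SE 0.039, edgeR adjusted p = 5.40e-10). Il6ra, the specific chain for interleukin 6, had 0.10 (SE 0.046, edgeR adjusted p = 0.0495), a call lost in 11 of 17 alternatives, and Il11ra1 had 0.10 (SE 0.22, edgeR adjusted p = 0.699). Lifr, the chain that pairs with gp130 for Lif, had only 19 counts over the controls and 8 over ETV4 KO. The most abundant ligand of the branch among the members therefore stood beside a receptor chain with almost no counts.

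Il23a carried the largest fall (chromosome 10, 128296139 to 128298752 in mm10). It had 38.0, 38.5 and 37.5 CPM in control replicates 1 to 3 and 18.5, 19.7 and 18.4 CPM in ETV4 KO replicates 1 to 3. Both groups were tight and far apart. The means were 38.0 CPM ± 0.516 and 18.8 CPM ± 0.715 (SD, n = 3 each), and the log2 fold change was -1.01 (SE 0.055, edgeR adjusted p = 4.34e-16). A lower one was found in 715 tested genes. A called fall of at least 2-fold was found in 6.02% of all tested genes. The partner subunit Il12b, named after its value was seen, had 0 counts in all 6 libraries, so that mRNA for the complete interleukin 23 was not detected in either group. Of the receptor chains Il23r had 0 counts, and Il12rb1 had 10.5 CPM ± 0.740 in controls and 2.96 CPM ± 0.324 in ETV4 KO (SD, n = 3 each), with a log2 difference of -1.82 (SE 0.11, edgeR adjusted p = 1.37e-14).

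**Figure D2:**
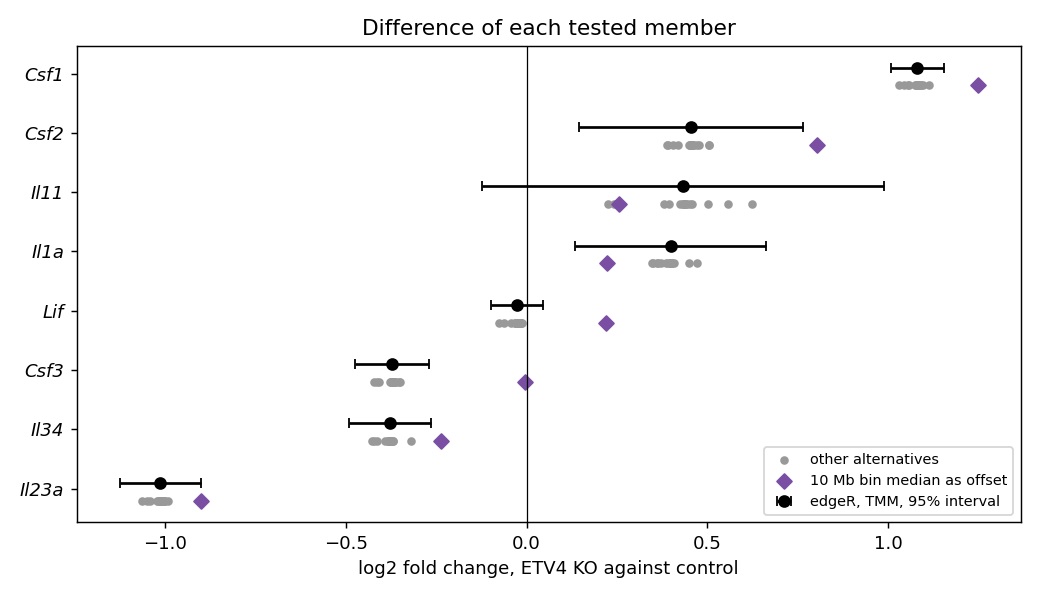
Log2 fold change of each of the 8 tested members, ETV4 KO against control. Black points are the edgeR values with 95% intervals, grey points the other alternatives, which include each library left out in turn, and diamonds the values with the 10 Mb bin median as an offset. Csf1 and Il23a keep their size throughout, while the diamond of Csf3 is near 0 and that of Lif on the other side of it.

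Levels of different genes were compared per kilobase of exon (CPM divided by the exon length in GENCODE M21). This length joins all annotated exons of a gene, whichever transcripts were expressed, so the order and shares depend on that choice. In controls the order was Csf3 (32.3 CPM per kb ± 1.66, SD, n = 3), Lif (28.2 ± 0.567), Csf1 (22.4 ± 0.918), Il34 (19.6 ± 0.209) and Il23a (16.9 ± 0.230). Csf2 (3.23 ± 0.254), Il1a (1.89 ± 0.174) and Il11 (0.415 ± 0.120) came next, and Il6 and Il1rn last. In ETV4 KO Csf1 was first at 47.5 CPM per kb ± 1.33 (SD, n = 3), followed by Lif at 27.7 ± 0.356 and Csf3 at 24.9 ± 0.237, with the order of the others as before. In both groups neighbours in the order did not overlap between libraries, apart from Il6 and Il1rn. Of the length-scaled mRNA of the 10 genes together, Csf1 made up 17.9% ± 0.700 in controls and 36.2% ± 0.839 in ETV4 KO (SD, n = 3 each), and Il23a 13.5% ± 0.205 and 6.40% ± 0.225. The level of Csf1 was above that of 80.2% of the tested genes in controls and of 91.1% in ETV4 KO, and that of Il23a above 74.5% and 56.7%.

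**Figure D3:**
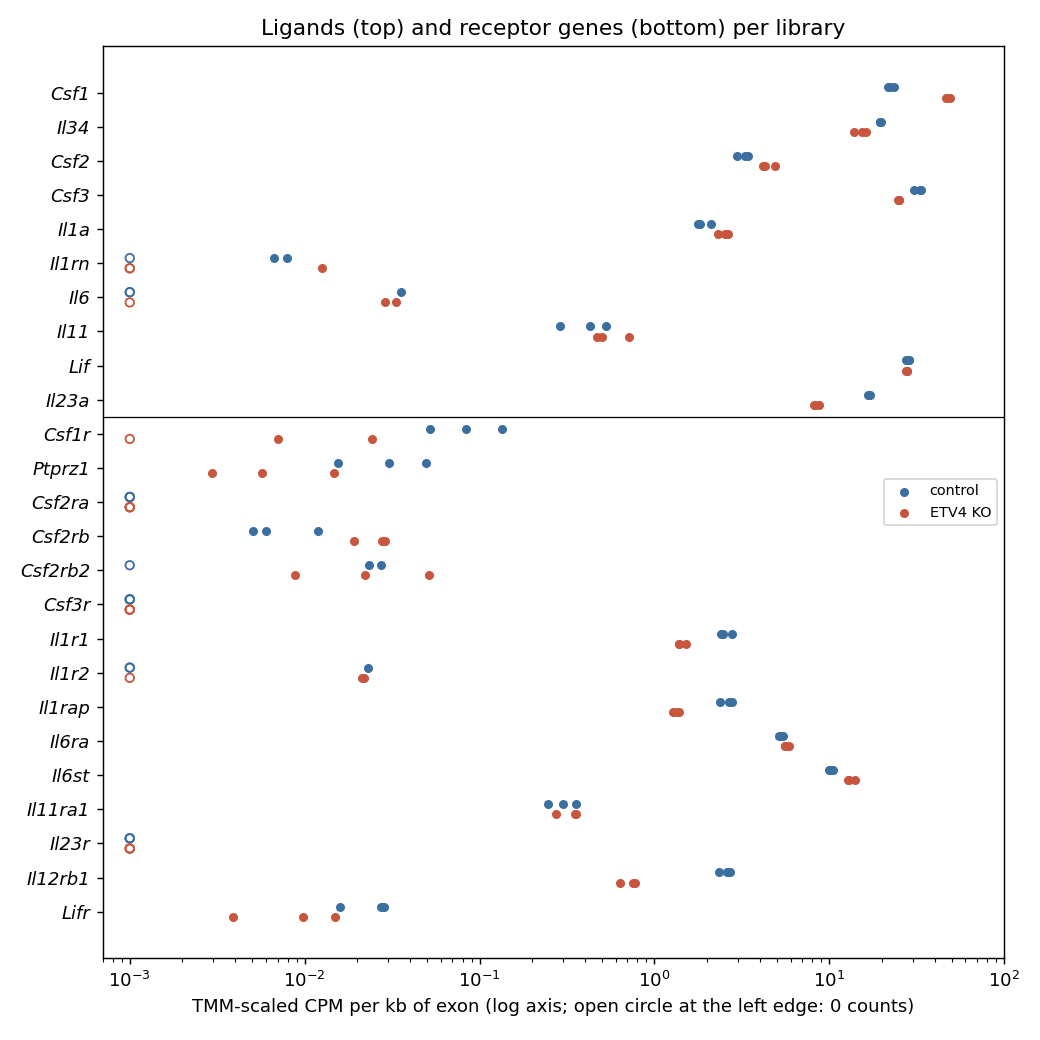
CPM per kb of exon in each library on a log axis, for the 10 ligand genes (above the line) and 15 receptor genes (below it); open circles at the left edge are libraries with 0 counts. In both groups 7 members lie above 1 CPM per kb, whereas Csf2ra, Csf3r and Il23r have 0 counts in every library and Csf1r and Lifr stay below 0.2.

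Of the 15 receptor genes 6 passed the filter, and of these 2 were called higher (Il6st and Il6ra), 3 lower (Il12rb1, Il1rap and Il1r1) and 1 neither, with a median log2 fold change of -0.36. Of all tested genes 71.1% were called, so the share called among these 6 is not read further. Without the filter Csf1r and Ptprz1 added to those called lower, 5 in all, and Il6ra was lost.

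The genes around several members moved too. Csf2, Csf3 and Lif lie on chromosome 11 like Etv4, and the 763 other genes of that chromosome with an edgeR log2 CPM above 3 had a median log2 fold change of -0.38. Within 1 Mb of Csf3 there were 36 other tested genes, 25 of them called lower, against 36% of all tested genes. Their median was -0.37, the value of Csf3 itself. Of the 36 genes 18 lay above Csf3 and 18 below, whereas 2506 of the 12076 tested genes lay below it. Within 1 Mb of Lif 28 of 31 genes were called lower, against the same 36%, and the median was -0.31. Lif, at -0.03, thus lay above 29 of the 31, and above 5783 of the 12076 tested genes. Csf2 lay above 23 of its 26 neighbours, whose median was -0.29, and above 10394 of the 12076 tested genes, which is a like share. The nearest tested gene to Csf2, Acsl6, an acyl-CoA synthetase whose start is 54.1 kb away, had -7.37 (SE 0.30, edgeR adjusted p = 3.01e-19), while Il3, the interleukin gene next to Csf2, had 0 counts; both are named after their values were seen.

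Around the other called members the medians were smaller, apart from Il1a. The median of the 25 other tested genes within 1 Mb of Csf1 was -0.20, and none was above Csf1, against 402 of the 12076 tested genes. Around Il23a the median was -0.16 and 3 of 57 genes lay below it, against 715 of the 12076. Around Il34 the median was -0.18 and 5 of 24 lay below it, against 2478 of the 12076. These counts of genes beyond the member are near those over all tested genes. Called lower were 14 of the 25 genes around Csf1, 28 of the 57 around Il23a and 15 of the 24 around Il34. Over all tested genes this was 36%. Called higher were 1, 13 and 3 of them, against 35% of all tested genes. Around Il1a 14 of 19 genes were called higher, against 35% of all tested genes. The median of the 19 was 0.30, and 8 of them lay above the 0.40 of Il1a. In an alternative fit, each gene was offset by its 10 Mb bin, using the median of that bin's other genes with log2 CPM above 3. Csf1 then had 1.25, Il23a -0.90 and Il34 -0.24, all still called, and the values of Csf2, Csf3, Il1a and Lif under it are given above. The bin median enters this fit as a fixed value without an error of its own. The part of the chromosomal setting in these differences was not tested.

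**Figure D4:**
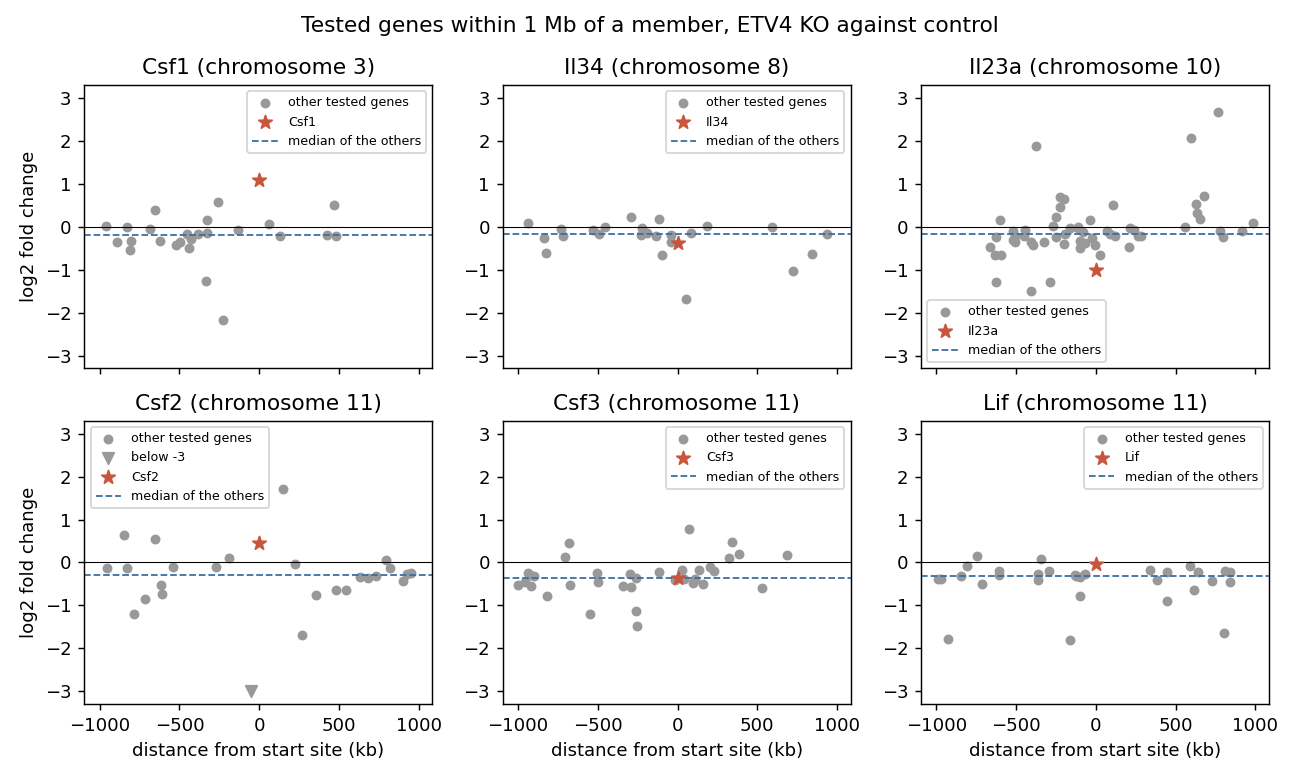
Log2 fold change of the tested genes within 1 Mb of 6 members, by distance of their start site in kb along the strand of the member (grey points; the triangle is a value below -3), with the member as a star and the median of the others as a dashed line. The star of Csf1 is at 1.08 over a median of -0.20, and that of Csf3 lies on the median of its neighbours.

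Other cytokines were measured with the same fit. Of 44 listed genes 40 were in the table, and 13 had 0 counts throughout. Of the 15 that passed the filter 6 were called higher and 5 lower, against 35% and 36% of all tested genes. Their median log2 fold change was 0.11. Il24, of the interleukin-10 family, rose by 0.80 (SE 0.041, edgeR adjusted p = 8.56e-17) and Tslp, an epithelial cytokine, by 1.10 (SE 0.079, edgeR adjusted p = 2.81e-13), with 8.20 CPM ± 0.607 in controls and 17.6 CPM ± 0.550 in ETV4 KO (SD, n = 3 each). Il18 had -2.97 (SE 0.20, edgeR adjusted p = 3.45e-14). Il33, an alarmin, had 21, 20 and 28 counts in control replicates 1 to 3 and none in ETV4 KO. With a floor of 3 counts per group this is at least 24.3-fold lower. Of the interleukin-1 family, Il1a was thus called higher, and Il1b, Il18 and Il33 lower.

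Of 17 JAK, STAT and feedback genes, all tested, 10 were called lower and 3 higher, against 36% and 35% of all tested genes, and the median log2 fold change was -0.32. Stat3, Stat5a, Stat5b and Socs3, 4 of the 10, lie on chromosome 11, in bins with medians of -0.46 to -0.49. The value of Socs3 was -0.47, that of Stat3 -0.54, that of Stat5a -0.85 and that of Stat5b -0.32; these 4 are named after their values were seen. With the bin medians as offset 8 of the 17 were called lower and 2 higher. Jak2, the kinase of the receptors for Csf2, Csf3 and several interleukins, had -1.14 (SE 0.038, edgeR adjusted p = 1.77e-21), from 181 CPM to 81.7 CPM, and Jak3 had -0.71 (SE 0.049). The phosphatases Ptpn6 and Ptpn11 rose by 0.84 (SE 0.063) and 0.30 (SE 0.031). Of 17 interleukin-1 pathway genes 15 were tested, 4 called higher and 5 lower, against 35% and 36% of all tested genes. Their median was -0.03. Tollip and Ikbkg had 0.27 and 0.32, and Nfkbiz and Irak2 had -0.35 and -0.62. Of 11 factors that bind or cut cytokine mRNAs 7 were called higher and 3 lower, against 35% and 36% of all tested genes. Their median was 0.13, and they were not tested as a set. Zfp36l2 and Khsrp, which promote decay of mRNAs with AU-rich elements, had 0.40 and 0.32, and Arid5a and Tia1 had -0.43 and -0.40. In the fit offset by bin medians, Ptpn11 (0.058), Nfkbiz (-0.063), Khsrp (0.00012) and Zfp36l2 (-0.040) were not called by edgeR, the last with its direction turned.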

How the data were processed

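The authors deposited 1 table of raw counts per gene symbol for the 6 libraries. Tools listed in the submitters' processing notes are STAR 2.7.9a, featureCounts, FastQC 0.11.9 and R 4.1.1, and builds are mm10 and hg38. The sources used here do not give the annotation, strand setting or rule for multi-mapping reads, so reads of genes that overlap on opposite strands (Csf2, Il1a and Il34 have such partners) may not have been separated. Per the labels' protocols, gels were digested with collagenase and libraries made with a stranded poly(A) kit.

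Counts were analysed with edgeR 4.0.16 in R 4.3.3: filterByExpr (minimum count 10, total 15), TMM, glmQLFit and glmQLFTest without a replicate block, and Benjamini-Hochberg adjustment over 12076 genes. SEs are |log2 fold change| over the root of F. Positions and exon lengths came from GENCODE M21, promoters from RefSeq (both GRCm38). Alternatives included DESeq2 1.42.0 and limma-voom (limma 3.58.1). On simulated counts for the 12076 genes, the steps recovered 37 of 50 genes changed 1.2-fold and 50 of 50 changed 2-fold. They called 11 of 11876 unchanged genes. The simulation changed few genes and had no chromosome-wide shifts, whereas 71.1% of tested genes were called in the data. It therefore cannot give the rate of false calls in these data. Within a group, pairs of libraries differed by more than sampling noise (chi-square per degree of freedom 2.11 to 5.12). The members and lists were chosen with earlier results of these data known. Besides the members and Etv4, the rule named the tested receptors and, per list, up to 2 called genes in each direction with the smallest adjusted p. Marker genes, untested receptors, Il1b, Il12b, Il3, Acsl6, Gm15894, Stat3, Stat5a, Stat5b and Socs3 fall outside it and were named after their values were seen. The planned protein comparison was not run, because no protein sequences were used here.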

Additional observations from a re-analysis of the deposited data

How the results depend on the processing

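The log2 fold changes of Csf1 (1.03 to 1.25) and Il23a (-1.06 to -0.90) kept their call under all 17 alternatives. Under the alternatives Csf2 was not called with DESeq2 (0.46, adjusted p = 0.058) and Il1a neither (0.40, adjusted p = 0.0502), which left 1 member higher. With glmTreat against 1.5-fold Csf2 (0.46), Il1a (0.40), Csf3 (-0.37) and Il34 (-0.38) were not called, which left 1 member higher and 1 lower. With the 10 Mb bin medians taken out Csf3 (-0.0050) and Il1a (0.22) lost their call and Lif turned to 0.22, called higher; the cause was not tested. The bin medians also took Etv4 from -0.58 to -0.11, still called, and turned Zfp36l2 to -0.040, without a call. Leaving out each library in turn gave 0.39 to 0.50 for Csf2, which lost its call without control replicate 2 (adjusted p = 0.051), 2 to 3 members higher and 3 lower, 1 to 2 receptor genes higher and 3 to 5 lower, and 0.23 to 0.62 for Il11 and -0.019 to 0.25 for Il11ra1, neither called. The count of receptor genes higher was 1 with upper-quartile factors, library size only, DESeq2, no filter, CPM of at least 1 in 3 samples and an adjusted p under 0.01, and 0 with glmTreat; 5 were lower with DESeq2 and with no filter. Of the other cytokines 3 were higher with glmTreat and 3 lower with the CPM filter. With glmTreat 1 JAK-STAT gene was higher and 4 lower, 0 interleukin-1 pathway genes and 0 mRNA-binding factors were called in either direction, and 735 of all tested genes were higher and 949 lower; with the bin medians taken out 4 mRNA-binding factors were higher. The Il34 to Csf1 ratio per kilobase was 0.876 in controls and 0.318 in ETV4 KO, against 0.325 and 0.118 in counts. Deviations of same-numbered samples were almost uncorrelated (r 0.025 to 0.054), though each r was the highest for its number. The replicate block kept the calls of the 8 members (Csf1 1.08, Il23a -1.01), with 4378 genes higher and 4504 lower against 4232 and 4350. Depth limits Il11, Il6 and Il1rn.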
